A study of Danio rerio with 6 samples.

Results

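Bulk RNA-seq of dissected whole zebrafish eyes at 72 h post fertilization (hpf) listed 4 genes with immune roles, *spi1a*, *c1qc*, *psmb10* and *mhc1zka*, among the 223 genes of the authors' deposited table. They encode a transcription factor of myeloid cells, a chain of complement C1q, a catalytic subunit of the immunoproteasome and an MHC class I protein. The 4 members were chosen by gene symbol from a table that already held only genes past the authors' limits in their comparison of *crim1*-/- eyes with control eyes. The measured values behind the choice are therefore the fold changes and adjusted p-values of that comparison. By the methods, listed genes also had to pass a minimum mean expression, in fragments scaled by transcript length and depth. The presence of a member in the table is thus not a finding here, and ranks below are among genes already filtered on expression. The fold-change and p-value columns were not used, so no direction or size of change is given for any gene.

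The series holds 6 libraries in 2 groups of 3, according to the sample labels. The labels call one group wildtype and the other a *crim1* knockdown with the genotype *crim1*-/-, although 1 genotype label carries a stray full stop and the series description counts fewer replicates per group. According to the methods, the mutant larvae came from in-crossed fish of a stable line made with CRISPR/Cas9, which carries a frameshifting 2-bp deletion in *crim1* on both alleles, traces to a single founder and was bred from larvae without visible eye defects. Controls were bred, by the methods, from EKW fish or from NBT:DsRed fish, so genotype and parentage differ together between the groups and cannot be told apart. The paper describes the eyes as pooled, so a library does not stand for a single larva. Nothing in the labels says whether the libraries of a group came from separate clutches. The only value used is the mean normalized count of each gene, averaged by the authors over all 6 libraries, so it has no replicate error and does not separate the groups.

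Spi1, also known as PU.1, switches on the genes of macrophages, microglia and neutrophils. C1q is assembled from A, B and C chains and starts the classical complement pathway when it binds antibody or cell debris, and in mammals macrophages and microglia make much of it. After interferon signals, the immunoproteasome forms with its own catalytic subunits in place of those of the ordinary proteasome. It cuts proteins into peptides, which MHC class I molecules then carry to the cell surface for T cells. Microglia populate the zebrafish retina early in development and clear dying cells there.

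The 4 genes fell into a pair with a read signal above the median of the listed genes and a pair far below it. *spi1a* (ENSDARG00000067797) had a mean of 189 normalized counts over the 6 libraries, and *psmb10* (ENSDARG00000043781) had a mean of 280. *mhc1zka* (ENSDARG00000104293) had a mean of 25.3 normalized counts and *c1qc* (ENSDARG00000095627) a mean of 12.03. The median over the 223 listed genes was 111 normalized counts, with quartiles of 49.9 and 258. *psmb10* thus lay above the upper quartile, *spi1a* between the median and the upper quartile, and both other members below the lower quartile. Normalized counts grow with transcript length, and no length was available for these genes, so this order is one of read signal and not of expression level per length.

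**Figure D1:**
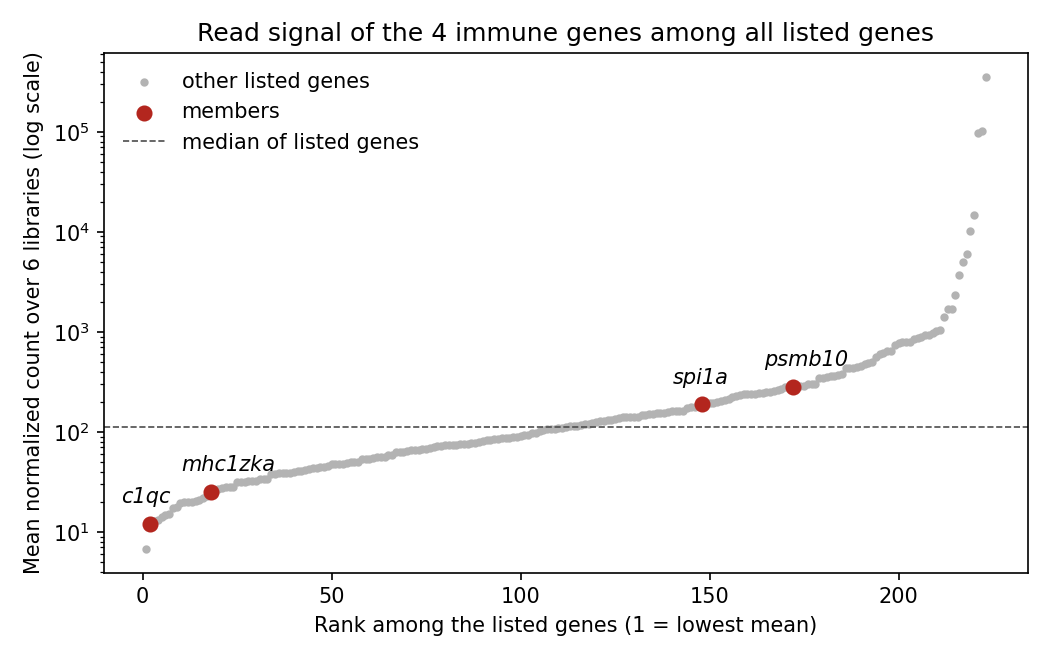
Mean normalized count over the 6 libraries (vertical axis, log scale) against rank for each of the 223 listed genes, with rank 1 the lowest mean. Red points are the 4 members, grey points the other listed genes, and the dashed line is the median of 111. *c1qc* is at rank 2 and *mhc1zka* at rank 18, while *spi1a* at rank 148 and *psmb10* at rank 172 lie above the median. There are no error bars because the authors' means carry no replicate values.

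*spi1a* is the myeloid transcription factor of the set, one of the pair of zebrafish Spi1 genes. Its mean ranked 76th from the highest of the 223 listed genes, above 66.2% of the others. The mean corresponds to a sum of 1132 normalized counts over the 6 libraries. Its paralog *spi1b* was not listed, nor were *csf1ra* and *csf1rb*, receptors for the macrophage growth factor CSF1, *irf8*, a transcription factor of macrophages, *mpeg1.1*, a macrophage perforin, or *p2ry12*, a purine receptor of microglia. Of 34 annotated genes in a list of myeloid and microglial genes, *spi1a* was the single one in the table, and it is there by the choice of members. Over the whole RefSeq annotation, 143 of 27039 protein-coding symbols, or 0.529%, matched a gene of the table. That share counts annotated genes, including any that were not tested, and misses the listed genes that had no match, so it is a low estimate. With so few genes listed, a list of this size would hold few or none, and neither this count nor those of the lists that follow are results about the lists. Since the table leaves out every gene that missed the authors' limits, an absent gene is not shown to be unchanged or unexpressed. All list genes were sought by symbol only, and 101 of the 223 listed genes lack a gene-based name. A list gene under a clone-based or other name would therefore be missed, here and in the lists that follow.

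*c1qc* encodes the C chain of C1q, and its read signal was the second lowest in the table. Its mean of 12.03 normalized counts amounts to a sum of 72.2 over the 6 libraries, against a lowest mean of 6.76 among the listed genes. Because the groups are of equal size, neither group can have averaged more than 24.1 normalized counts, which is the mean that 1 group would have if the other were at 0. The values of this gene in the separate libraries were not analysed here, and the share of its sum that any 1 library holds is not known. In the gene order of the RefSeq annotation of assembly GRCz12tu, *c1qc* lies directly between *c1qb* and *c1qa*, which encode the partner chains. Neither partner chain was listed. The complement list held 26 annotated genes, among them *c3a.1*, a copy of the central component C3, *c9*, a pore-forming component, and *cfb*, factor B of the alternative pathway. Of these 26, the member *c1qc* was the one in the table, a count to be set beside the same 0.529% of annotated genes.

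*psmb10* encodes the interferon-induced counterpart of the proteasome subunit Psmb7 and carries one of the catalytic sites of the immunoproteasome. It had the strongest read signal of the 4 members, ranked 52nd from the highest and above 77.0% of the other listed genes, with a sum of 1681 normalized counts over the 6 libraries. The other immunoproteasome subunit genes *psmb8a* and *psmb9a* were not listed, and neither was *psmb7*. The immunoproteasome list held 10 annotated genes, of which the member *psmb10* alone was in the table, and a list of the constitutive proteasome core held 15, of which 0 were. The difference between these counts was not tested, and the 1 is the gene that the choice of members put there. In the gene order used here none of *psmb7*, *psmb8a*, *psmb9a*, *psmb12* and *psmb13a* was found by symbol on the chromosome of *psmb10*. A gene that the annotation lacks under its symbol would give the same answer, so the genes are not shown to lie elsewhere. The 20 protein-coding genes nearest to it all have clone-based or provisional names. RefSeq gives *psmb10* 2 transcripts and 2 proteins, whose separate contributions to the mean were not available.

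*mhc1zka* belongs to the Z lineage of zebrafish MHC class I genes. Its mean of 25.3 normalized counts ranked 18th from the lowest of the listed genes, with a sum of 152 over the 6 libraries and a ceiling of 50.6 for the mean of either group. A list for MHC class I and peptide loading held 34 annotated genes, and the one in the table was this member, chosen from it. Those not listed include *b2m*, the light chain of MHC class I molecules, and *tap1* and *tap2a*, subunits of the transporter that brings peptides to them. The Z-lineage gene *mhc1zfa* lies 4 protein-coding genes away in the gene order and was not listed. MHC class I genes form a family of related copies that differ between zebrafish haplotypes, so reads assigned to *mhc1zka* may belong in part to relatives, and its value is uncertain for that reason. How far reads were shared was not tested, as no sequence of these genes was used here.

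The members had little in common in position. They lie on 4 different chromosomes, and 0 of them is on the chromosome of *crim1*. Among the 10 protein-coding genes on each side of each member, 0 were matched to another gene of the table by symbol. At a share of 0.529% of annotated genes, so few neighbours would hold few or none. The 0 is thus not a result about any member. It covers only the 143 of 223 listed symbols that matched a protein-coding RefSeq gene. Clone-based or provisional names were carried by 20 of the 20 neighbours of *psmb10* and 16 of the 20 of *mhc1zka*. A listed gene under another name would be missed, which limits the 0 further for these members. Coordinates are not given because that assembly is not the GRCz11 build of the authors' files.

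For completeness, 0 genes of the other immune lists were in the table, and at a share of 0.529% of annotated genes this is not a result about them. These were 6 annotated genes of MHC class II, including *cd74a* and *cd74b*, which encode the invariant chain, and 18 genes of the interferon response, including *stat1a* and *irf1b*, transcription factors that act downstream of interferon. Lists for photoreceptors, red blood cells and skin, with 15, 8 and 11 annotated genes, also had 0 in the table. A list of 20 lens crystallin and lens membrane genes had 3, all gamma M crystallins, and a list of 10 skeletal muscle genes had 1, *mybpc2b*. These counts stand beside the same 0.529% and were not tested. The lists were chosen with earlier results of these data known, so the counts are not results about lens or muscle. *crygm2d17*, a lens crystallin gene, had the highest mean of the table, at 357210 normalized counts, which fits the labelled tissue, and *crim1* itself had a mean of 372. Whole eyes hold blood, vessels and their resident macrophages as well as lens and retina, and in such bulk samples the number of cells of a type and the RNA per cell cannot be told apart. Which cells the reads of the 4 members came from was not tested.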

How the data were processed

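Whole eyes were dissected at 72 hpf, and libraries from amplified cDNA were sequenced as single-end reads. Per the methods and the submitters' processing notes, the authors checked reads with FastQC, trimmed them with BBDuk, used STAR to align them to GRCz11, took gene quantities from RSEM and ran DESeq2 on the groups. The sources used here give no tool versions and no strand setting. The authors deposited a single table of 223 genes. Its mean normalized count is a signal that the authors scaled by size factors and averaged over all libraries. Its other columns hold the authors' own comparison (log2 fold change, standard error, p-value and adjusted p-value) and were not used. Values per library were not analysed here, which left out the count test that had been planned, and the depth of each library and its counting error are unknown.

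Computed here were each member's rank, its sum over 6 libraries and the ceiling that the mean sets for a group of 3. The rank calculation was tested on made-up values with known ranks. Named are the members, listed genes of the immune lists, *crygm2d17* and *crim1*. Relatives, absent list genes and *mybpc2b* were named after the table had been read. The members and gene lists were chosen with earlier results of these data known. Of 223 gene IDs, 207 matched the table of gene names, and all 4 members matched both that table and RefSeq by symbol or ID. The planned comparison of proteins and the values per kilobase of coding sequence were not made, because no sequences were used here. The share of all protein-coding RefSeq symbols found in the table stands beside the counts of lists, since the number of genes tested was not taken from the unused columns. Alternatives were other sets of listed genes for the ranks, matching by gene ID and, chosen after seeing the data, a wider window of gene order. Calculations ran in Python 3.11.15 with pandas 2.3.3 and SciPy 1.17.1, and the plot was drawn with Matplotlib 3.10.9.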

Additional observations from a re-analysis of the deposited data

How the results depend on the processing

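No paired analysis was possible because the table gives each gene a single mean over all libraries, although both groups are numbered alike in the labels. For the same reason the count fits were not run. Their variants, with other size factors, filters on low counts per library or each replicate left out, were not run either. What depth limits could not be examined. With clone-based names left out, 122 genes remained in the set, and the share of the other listed genes with a lower mean was 57.0% for *spi1a* (66.2% over all listed genes) and 70.2% for *psmb10* (77.0%). With only genes at a mean of 10 or more normalized counts, *c1qc* had the lowest mean of 222 genes, with 0% of the others lower (0.450% over all listed genes), where the single gene below it is removed by construction. The other alternatives for these shares, including each of those for *mhc1zka*, stayed inside the 95% binomial interval around the share over all listed genes. That interval is only a yardstick, because the listed genes are not a random sample and the alternatives are subsets of them. Matching by gene ID found the same 4 members. Within 50 protein-coding genes on each side, a window chosen after seeing the data, 1 listed gene (zgc:173552) lay near *spi1a* and 0 near the other members. At a share of 0.529% of annotated genes, this difference is not a result about *spi1a* or the other members. In this window 62 of 94 neighbours of *psmb10* and 64 of 95 of *mhc1zka* had clone-based or provisional names. The same held for 47 of 100 neighbours of *spi1a* and 14 of 100 of *c1qc*, so matching by symbol could miss listed genes.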
